A study of Mus musculus with 45 samples.

Results

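The genes described here are 33 genes of sterol and fatty acid synthesis in mouse mammary tumour cell lines driven by MYC. They were taken from a list of names: 18 enzymes of the route from acetyl-CoA to cholesterol, 6 genes of sterol sensing and transport, and 9 genes of fatty acid synthesis and desaturation. All 33 were among the 28454 genes of the count table, and all 33 passed the filter on low counts in every comparison, with at least 44 counts in every library.

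Sterols and fatty acids are both built from acetyl-CoA. When cholesterol is low in the membrane of the endoplasmic reticulum, the escort SCAP carries the precursor of the transcription factor SREBP2 (encoded by Srebf2) to the Golgi, where proteases free its active part, which raises the enzymes of sterol synthesis, while the related SREBP1 (Srebf1) acts mainly on fatty acid genes. INSIG proteins hold SCAP in the endoplasmic reticulum when sterols are plentiful, and in tumour cells both routes supply membrane lipids for growth.

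Polyadenylated RNA was sequenced from 45 cultures of 11 cell lines, 3 cultures of each line in each medium. MYAZ16.1e, MYAZ12.3i and MYAZ6.6g came from mammary tumours of MMTV-cMYC mice, in which a mouse mammary tumour virus promoter drives MYC, and Myc310 came from a tumour of an MMTV-MYC mouse that carried several. The lines LM1, LM2 and LM3 were recovered from the lungs of mice whose mammary fat pad had received Myc310 cells, and LM1-LM, LM2-LM and LM3-LM from lungs after fat pad injection of LM1 cells, so that all LM and LM-LM lines descend from 1 line. MYAZ12.3i NDI1 is a derivative of MYAZ12.3i whose labels give no more than this name. All cells were seeded at 250000 per well in DMEM:F12 with fetal serum, insulin, hydrocortisone and EGF, and 24 h later the medium was changed for 6 h. The sources differ on the lines for which this was done, from only the 4 that also have deprived cultures to every line. Every line has cultures labelled control, and 4 lines also have cultures in medium without cysteine and cystine. These 4 are given throughout in the order MYAZ16.1e, Myc310, LM1, LM1-LM. The labels spell the names differently (MYAZ16_1e, LM1_LM, MYAZ12_3i_NDI1). The 3 cultures of a line are described as technical replicates. The p-values for 1 line therefore rest on the spread between cultures, pooled over all groups of the same fit.

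Library totals on genes lay between 19517859 and 29019988 counts, and all cultures of a group differed by more than sampling noise. Chac1, Trib3 and Asns, genes that cells raise when amino acids are short, rose in all 4 deprived lines, Chac1 by 5.81 to 6.41 on the log2 scale. The keratins Krt8 (at least 217 CPM) and Krt18 (at least 94 CPM) were high in every library, whereas the epithelial markers Epcam, Cdh1, Krt5, Cldn3 and Cldn4 stayed under 1 CPM in every library. Of the other cell types checked, Ptprc (leukocytes), Pecam1 (endothelium), Sftpc (alveolar epithelium), Adipoq and Plin1 (adipocytes) never exceeded 0.246 CPM. Other genes of these lists were expressed, Cd14 at 13.6 to 59 CPM and Cd68 at 2.7 to 18.7 CPM (leukocytes), Fabp4 at 16.2 to 163 CPM and Lpl at up to 31.7 CPM (adipocytes), and Kdr at up to 6.36 CPM (endothelium). CPM here are counts scaled to the library total with TMM factors (trimmed mean of M values) over all 45 libraries. In bulk RNA of this kind, fewer cells expressing a gene and less RNA per cell cannot be told apart.

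Levels per kilobase were taken over all annotated exons of a gene. By the mean over the 10 lines in control medium, 4 fatty acid genes (Scd2, Fasn, Acly and Scd1) were the most abundant members. In its lowest line, Scd1 was at 23.2 CPM per kb, under the means of Srebf2 (27.5) and Srebf1 (27). Scd2, a stearoyl-CoA desaturase, had the highest level at 149 CPM per kb (107 to 242 over the 10 lines), followed by Fasn, the fatty acid synthase, at 78.6 and Acly, which makes cytosolic acetyl-CoA from citrate, at 63.5 CPM per kb. The most abundant sterol enzyme by this measure was Idi1 at 25.6 CPM per kb (17.3 to 37.8 over the lines). Sqle followed at 20.8 (12.4 to 36.1) and Fdps at 20.5 CPM per kb (10.4 to 34.4). The lowest member was Acss2, which makes acetyl-CoA from acetate, at 1.17 CPM per kb. These ranks depend on the exon lengths used and were not the same in every line.

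After 6 h without cysteine and cystine, most members fell in all 4 lines, in both branches. With edgeR's quasi-likelihood test and a Benjamini-Hochberg adjusted p under 0.05 over all 13400 genes tested, 27, 25, 24 and 23 of the 33 members fell in the 4 lines. Among all genes tested, 27.1%, 33.9%, 35.3% and 35.9% fell. Members that rose numbered 3, 5, 5 and 6, against 26.6%, 32.8%, 35.8% and 36.5% of all genes. The 3 rises in MYAZ16.1e were all lost without its control replicate 3 or without replicate 2, and DESeq2 called 1. The 4 comparisons use separate libraries for each line. In all 4 lines 22 members fell, namely 11 of 18 sterol enzymes, 3 of 6 sensing genes and 8 of 9 fatty acid genes. Of all genes, 19% fell in all 4 lines and 19.3% rose in all 4. Msmo1 and Insig2 rose in all 4, in MYAZ16.1e by no more than 0.15 on the log2 scale. The medians of the sterol enzymes were −0.55, −0.49, −0.47 and −0.34 on the log2 scale, those of the sensing genes −0.26, −0.26, −0.39 and −0.44, and those of the fatty acid genes −0.43, −0.57, −0.62 and −0.59, while the median of all genes was −0.01 in Myc310 and 0.00 in the others.

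**Figure D1:**
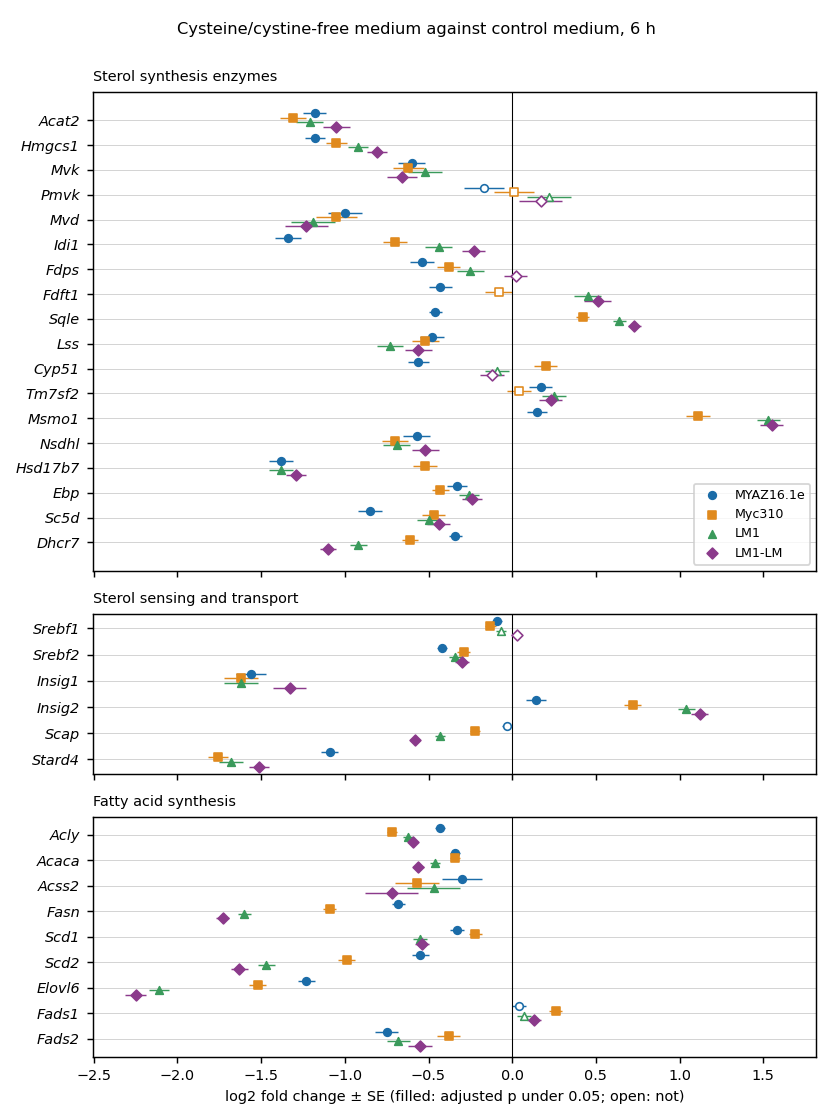
Log2 fold change of each of the 33 genes in cysteine/cystine-free against control medium (x axis, points with SE), 1 symbol per line, by branch, with filled symbols for an adjusted p under 0.05 and open symbols for the rest. Most points lie left of 0; Msmo1, Insig2 and Sqle lie right of 0 in the 3 lines of Myc310 descent, and Elovl6 reaches −2.25 in LM1-LM.

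Promoter sequences are shown for 5 genes, since members of 1 regulated group moved in opposite directions. Of these, Hmgcs1, Insig1 and Fasn fell, and Msmo1 and Insig2 rose. They are the 250 bases before the RefSeq start site on build GRCm38.p6, read 5′ to 3′, with capitals marking matches on either strand to TCACNCCA (the core of a classical sterol response element), CACGTG (E-box), CCAAT and TGATGNAA (a C/EBP-ATF type element). For Insig2, which has 3 start sites in the table, the windows of the 2 with such matches are given. Most of the Msmo1 window, with all its marked matches, and all of the second Insig2 window lie inside the annotated gene. In all the windows shown but that of Hmgcs1, the last bases lie within a transcript.
Hmgcs1 (chr13:119690101-119690350, plus strand): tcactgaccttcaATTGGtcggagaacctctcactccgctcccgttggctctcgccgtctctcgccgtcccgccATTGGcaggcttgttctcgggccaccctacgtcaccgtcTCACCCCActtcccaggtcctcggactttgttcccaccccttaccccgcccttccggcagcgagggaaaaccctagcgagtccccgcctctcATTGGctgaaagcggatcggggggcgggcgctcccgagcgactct
Insig1 (chr5:28071162-28071411, plus strand): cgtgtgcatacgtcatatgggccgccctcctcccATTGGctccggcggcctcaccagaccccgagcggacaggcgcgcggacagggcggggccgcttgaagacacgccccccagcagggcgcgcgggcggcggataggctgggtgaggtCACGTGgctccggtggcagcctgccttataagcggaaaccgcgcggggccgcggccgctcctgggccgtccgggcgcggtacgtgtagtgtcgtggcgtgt
Fasn (chr11:120824548-120824797, minus strand): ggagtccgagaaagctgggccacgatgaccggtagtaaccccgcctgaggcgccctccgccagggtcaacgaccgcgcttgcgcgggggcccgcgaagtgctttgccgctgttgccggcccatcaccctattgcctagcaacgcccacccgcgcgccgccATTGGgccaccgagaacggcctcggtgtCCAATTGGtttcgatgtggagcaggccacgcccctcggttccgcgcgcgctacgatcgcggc
Msmo1 (chr8:64733579-64733828, minus strand): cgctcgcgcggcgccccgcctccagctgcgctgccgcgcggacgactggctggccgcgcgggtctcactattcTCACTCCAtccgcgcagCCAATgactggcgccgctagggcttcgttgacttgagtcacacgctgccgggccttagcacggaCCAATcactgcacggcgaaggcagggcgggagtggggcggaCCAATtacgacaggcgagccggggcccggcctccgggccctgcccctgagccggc
Insig2 (chr1:121332590-121332839, minus strand): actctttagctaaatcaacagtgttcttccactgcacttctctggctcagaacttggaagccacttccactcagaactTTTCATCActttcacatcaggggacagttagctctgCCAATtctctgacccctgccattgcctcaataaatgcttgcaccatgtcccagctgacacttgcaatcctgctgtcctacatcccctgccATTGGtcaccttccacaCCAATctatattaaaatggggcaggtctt
Insig2 (chr1:121328025-121328274, minus strand): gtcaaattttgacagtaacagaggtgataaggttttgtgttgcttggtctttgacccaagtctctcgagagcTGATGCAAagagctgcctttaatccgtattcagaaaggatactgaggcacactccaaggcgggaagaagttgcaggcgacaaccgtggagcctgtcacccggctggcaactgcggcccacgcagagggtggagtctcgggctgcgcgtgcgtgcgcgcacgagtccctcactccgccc

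Windows of this kind were found for 26 of the 33 members. CCAAT, the site of the factor NF-Y, stood in 20 of these 26 (76.9%), against 37.5% of all 27025 genes with a window and 41.2% of the 9648 tested genes with one. By branch, it stood in 14 of 15 sterol enzymes, 4 of 5 sensing genes and 2 of 6 fatty acid genes. The GC box GGGCGG, not marked above, stood in 22 of the 26 (84.6%), against 35.4% of all genes and 65% of tested genes. TCACNCCA was found in 3 members (Hmgcs1, Msmo1 and Srebf2), against 4.2% of all genes (3.89% of tested genes), and CACGTG in 5 (Dhcr7, Hsd17b7, Insig1, Sc5d and Scap), against 6.86% (10% of tested genes). TGATGNAA was found in 2 members, Idi1 and Insig2, against 3.91% of all genes (2.33% of tested genes). In Fasn, a CCAAT on each strand overlaps within the run CCAATTGG. Hmgcs1, which fell, and Msmo1, which rose, both hold TCACNCCA and CCAAT. Whether any of these letters goes with direction over the members was not tested. A match is a description of the letters and not evidence of binding.

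The first steps of the sterol route fell in every line. Hmgcs1, which condenses acetyl-CoA units into HMG-CoA, measured 89.5, 85.5 and 89.8 CPM in the control cultures of MYAZ16.1e and 37.4, 39.3 and 40.6 CPM in the deprived ones. In Myc310 its level went from 56.3 ± 3.4 to 27.5 ± 1.24 CPM (mean ± SD, n = 3). Control and deprived cultures did not overlap in any line, and the log2 changes were −1.18, −1.05, −0.92 and −0.81 in the 4 lines, each with SE 0.06. Acat2, the cytosolic thiolase that starts the route, fell by 1.18, 1.31, 1.21 and 1.05. Its reads may be shared with the near copy Acat3, so its level is less certain than that of single-copy genes. The mevalonate kinase Mvk fell by 0.52 to 0.66 and the decarboxylase Mvd by 1.00 to 1.23. Pmvk, the kinase between them, did not pass the test in any line, with log2 differences of −0.17, 0.01, 0.22 and 0.17.

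The isopentenyl isomerase Idi1 fell in all 4 lines, most in MYAZ16.1e. Its control cultures in MYAZ16.1e measured 93.2, 79.7 and 75.6 CPM and its deprived ones 32.2, 29.2 and 36.4 CPM. In LM1-LM the control cultures measured 68.2, 59.9 and 54.2 CPM and the deprived ones 50.6, 52.6 and 48.3 CPM. The groups did not overlap in either line, but the log2 change was −1.34 ± 0.08 (SE) in MYAZ16.1e and −0.23 ± 0.07 in LM1-LM, with −0.70 and −0.44 in Myc310 and LM1. The response of MYAZ16.1e differed from those of the other 3 lines, but the step from Myc310 to LM1 (0.26, adjusted p = 0.0711) and that from LM1 to LM1-LM (0.21, adjusted p = 0.452) did not pass the test of the difference. Without replicate 1 of every group, the LM1-LM value was −0.15 (adjusted p = 0.0874). The farnesyl diphosphate synthase Fdps fell in MYAZ16.1e, Myc310 and LM1, by 0.54, 0.38 and 0.25, and measured 0.02 in LM1-LM (adjusted p = 0.81). The fall of Fdps in LM1 was not called without replicate 2 (−0.15, adjusted p = 0.17).

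The next enzymes turned direction between lines. Sqle, the squalene epoxidase, fell in MYAZ16.1e from 139 ± 7.06 to 102 ± 2.83 CPM. In LM1 it rose from 67.1, 74.4 and 71.1 CPM to 108, 111 and 105 CPM, and it rose also in Myc310 and LM1-LM. Its log2 changes were −0.46, 0.42, 0.64 and 0.73, each with SE 0.04, so that the deprived cultures of all 4 lines came to lie between 98.6 and 114 CPM. Fdft1, the squalene synthase that commits carbon to sterols, fell by 0.43 in MYAZ16.1e, rose by 0.45 in LM1 and 0.51 in LM1-LM, and measured −0.08 in Myc310 (adjusted p = 0.367). Its exons overlap those of Ctsb on the other strand.

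Among the enzymes that turn lanosterol into cholesterol, Msmo1 rose most in Myc310, LM1 and LM1-LM. Msmo1, the sterol C4-methyl oxidase, measured 29.5 CPM in each of the 3 control cultures of Myc310 and 65.9, 61 and 65.7 CPM in the deprived ones. In LM1 it went from 25.3, 29.1 and 26.3 CPM to 75.5, 76.1 and 76.2 CPM, a 2.89-fold rise (adjusted p = 4.24e-18), and in LM1-LM from 28.1 ± 5.2 to 80.4 ± 0.356 CPM. In MYAZ16.1e the control cultures, at 70.9, 62.4 and 69.8 CPM, already lay near the level that the other lines reached when deprived, and the change there was 0.15 ± 0.06 (adjusted p = 0.0477). Without MYAZ16.1e control replicate 3, whose library name lies outside the run of names of its group, that change was 0.17 with an adjusted p of 0.053, and without replicate 2 of every group 0.08 (adjusted p = 0.472).

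Nsdhl, which acts on the same C4 methyl groups, fell in all 4 lines by 0.52 to 0.70, and Hsd17b7, the ketoreductase of that complex, fell by 1.38, 0.52, 1.38 and 1.29 in the 4 lines. Hsd17b7 in LM1 measured 31.1, 33.4 and 31.8 CPM in control and 11.7, 12.7 and 11.8 CPM in deprived cultures. Lss, which closes the ring of lanosterol, fell by 0.48 to 0.73. Cyp51, the C14 demethylase, fell by 0.56 in MYAZ16.1e and rose by 0.20 in Myc310, and measured −0.09 and −0.12 in LM1 and LM1-LM, neither past the test. Without replicate 1, the Cyp51 value in Myc310 was 0.13 (adjusted p = 0.115), and the call was also lost without replicate 2. Its exons overlap those of Akap9 on the other strand.

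The last steps fell in every line with unequal sizes. Dhcr7, the reductase of 7-dehydrocholesterol, fell by 0.34, 0.61, 0.92 and 1.10, in LM1-LM from 64 ± 2.9 to 29.1 ± 1.88 CPM. Sc5d, the enzyme that makes 7-dehydrocholesterol, fell by 0.85 in MYAZ16.1e and by 0.44 to 0.50 in the other 3 lines. The isomerase Ebp fell by 0.24 to 0.43. Tm7sf2, a sterol C14 reductase that shares exons with Vps51 on its own strand, rose by 0.17 in MYAZ16.1e, 0.25 in LM1 and 0.23 in LM1-LM, and each of these 3 calls was lost in at least 1 alternative, in MYAZ16.1e also without control replicate 3 (adjusted p = 0.0553) and without replicate 2 (0.09, adjusted p = 0.362).

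The 2 INSIG genes moved in opposite directions. Insig1, whose product retains SCAP and which is itself a classical SREBP target, measured 28.7, 29.5 and 28.3 CPM in control and 8.83, 9.64 and 9.01 CPM in deprived cultures of LM1. It fell by 1.56, 1.62, 1.62 and 1.33 in the 4 lines, and no control culture overlapped a deprived one. Insig2, with a like function, measured 20.5, 19.7 and 19.7 CPM in control and 40.7, 38.8 and 40.9 CPM in deprived LM1 cultures. Its log2 changes were 0.14 ± 0.06, 0.72 ± 0.05, 1.04 ± 0.05 and 1.12 ± 0.05. In MYAZ16.1e the groups overlapped (19.7, 18.2 and 16.7 CPM against 20.3, 19.3 and 20.4 CPM), and the call there, with an adjusted p of 0.0321, was lost without control replicate 3 (adjusted p = 0.371).

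Stard4, which carries cholesterol between membranes, fell in Myc310 from 38.2, 40.4 and 40.7 CPM to 12.5, 11.2 and 11.8 CPM, and its log2 changes were −1.09, −1.76, −1.68 and −1.51 in the 4 lines. Srebf2 fell in all 4 lines by 0.29 to 0.42. Scap fell by 0.22, 0.43 and 0.58 in Myc310, LM1 and LM1-LM, and measured −0.03 in MYAZ16.1e (adjusted p = 0.38). Srebf1 fell by 0.09 in MYAZ16.1e (not called without replicate 2, adjusted p = 0.193) and 0.13 in Myc310 and did not pass the test in LM1 (−0.07, adjusted p = 0.0576) or LM1-LM (0.03). In LM1 it was called lower in 7 of 12 alternatives, with adjusted p between 9.44e-06 and 0.179 over all of them, and in LM1-LM the value was −0.10 and past the test when libraries were scaled by their totals alone. The exons of Srebf1 overlap those of Rai1 on the other strand.

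**Figure D2:**
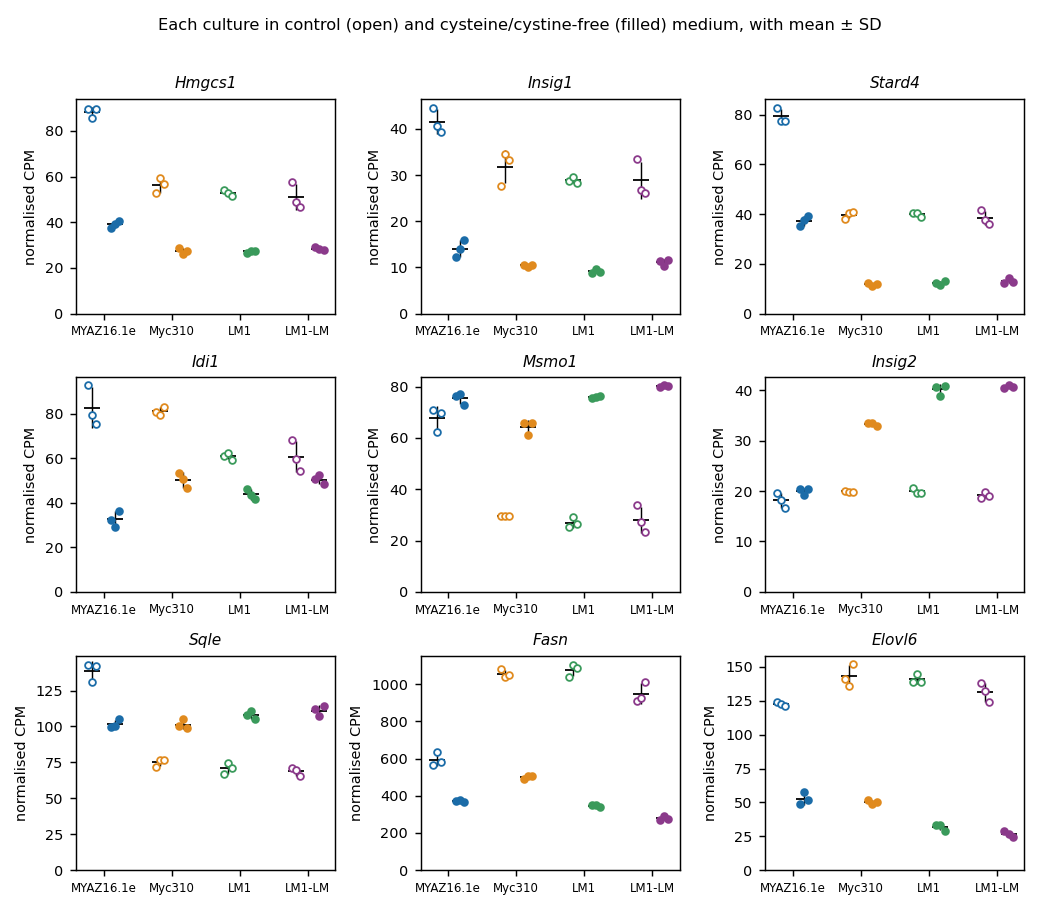
Normalised CPM (y axis, from 0) of 9 genes in each culture of the 4 lines in control (open) and cysteine/cystine-free (filled) medium, with bars for mean ± SD. Hmgcs1, Insig1, Stard4, Idi1, Fasn and Elovl6 fall in all 4 lines, Msmo1 and Insig2 rise at least 1.65-fold in all lines but MYAZ16.1e, and Sqle falls in MYAZ16.1e and rises in the other 3.

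In the fatty acid branch, 8 of 9 genes fell in every line, where 19% of all genes did. Elovl6, which elongates palmitate to stearate, showed the largest change of all members in LM1 and LM1-LM. It measured 124, 123 and 121 CPM in control and 48.6, 57.3 and 51.8 CPM in deprived MYAZ16.1e, and 138, 132 and 124 CPM in control and 29, 26.5 and 24.6 CPM in deprived LM1-LM. The log2 changes were −1.23, −1.52, −2.11 and −2.25, the last a level of 0.21 times control (adjusted p = 1.45e-24). Fasn measured 1037.9, 1104.8 and 1089.4 CPM in control and 349.7, 353 and 339 CPM in deprived LM1, and fell by 0.68, 1.09, 1.60 and 1.73 in the 4 lines, each with SE 0.04. Scd2 fell by 0.55, 0.99, 1.47 and 1.63. For these 3 genes the fall grew at each step in the order of the lines, and the last step, from LM1 to LM1-LM, did not pass the test of the difference.

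Acly fell by 0.43, 0.72, 0.62 and 0.59, and Acaca, the acetyl-CoA carboxylase that makes malonyl-CoA, by 0.34, 0.34, 0.46 and 0.56. Scd1 fell by 0.33, 0.22, 0.55 and 0.54. Scd1 and Scd2 have near copies, among which reads may be split. The desaturase Fads2 fell by 0.38 to 0.75, whereas its neighbour Fads1 measured 0.04, 0.26, 0.07 and 0.13 and passed the test in Myc310 and LM1-LM, the latter value being −0.002 under scaling by library totals. Acss2 fell by 0.30, 0.57, 0.47 and 0.72 from control levels of 13.6, 8.35, 4.15 and 4.06 CPM, and the calls in MYAZ16.1e and LM1 were each lost in at least 1 alternative, in MYAZ16.1e also without control replicate 3 (adjusted p = 0.113) and in LM1 without replicate 1 (−0.34, adjusted p = 0.113). Its exons overlap those of Gss, the glutathione synthetase, on the other strand.

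Several marker lists moved with deprivation beside these genes. The summed level of the adipocyte marker list (9 of 10 in the table, 3 above 1 CPM in any group) was 57.2 to 63.8 CPM in control and 105 to 115 CPM in deprived LM1, 83.2 to 89.1 and 158 to 163 CPM in LM1-LM, 63.8 to 69.3 and 94.9 to 98.6 CPM in Myc310, and 37.5 to 38.7 and 34.4 to 37.1 CPM in MYAZ16.1e. Adrb3 was at 0 in every library, and Adipoq and Plin1 did not exceed 0.0795 CPM in any. The leukocyte list (7 of 10 in the table, 3 above 1 CPM in any group, none at 0 throughout) went from 34.6 to 39 CPM up to 47.6 to 51.8 CPM in MYAZ16.1e, from 41.2 to 43.2 up to 69 to 70.8 in Myc310, from 30.4 to 32.5 up to 63.8 to 69.2 in LM1, and from 31.9 to 34.1 up to 64.2 to 68.8 in LM1-LM. The fibroblast list (10 of 10, 5 above 1 CPM, Fap at 0 in every library) went from 57.6 to 63.6 CPM down to 26.9 to 29.2 CPM in LM1-LM and from 15.1 to 17.7 down to 10.5 to 11.4 in LM1, but from 7.46 to 10.2 up to 10.7 to 11.9 in MYAZ16.1e and from 1.73 to 2.16 up to 2.68 to 2.81 in Myc310. The mammary epithelium list (10 of 10, 4 above 1 CPM) was higher in the deprived cultures of all 4 lines, at 1353.4 to 1400.3 CPM against 1147.5 to 1175.3 CPM in MYAZ16.1e, 1604.3 to 1640.1 against 1383.0 to 1399.5 in Myc310, 1383.0 to 1419.1 against 1104.6 to 1134.1 in LM1, and 1317.2 to 1347.0 against 1015.8 to 1062.6 in LM1-LM. The part of these markers in the results was not tested.

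The responses were then compared between lines with interaction terms. Against MYAZ16.1e, the response of 18, 19 and 20 members differed in the other 3 lines in order, where 40.3%, 52.2% and 54.8% of all genes differed. These 3 comparisons share the libraries of MYAZ16.1e. Of all genes, 19.8%, 26.9% and 28.4% responded above MYAZ16.1e and 20.4%, 25.3% and 26.4% below it. Of the sterol enzymes, 7, 8 and 8 responded above MYAZ16.1e (falling less, or rising) and 1, 2 and 1 below it. Of the fatty acid genes, 2, 0 and 0 responded above and 4, 6 and 6 below. The difference between the branches was not tested. Msmo1 differed from MYAZ16.1e by 0.96, 1.38 and 1.40, Sqle by 0.88, 1.09 and 1.18 and Idi1 by 0.64, 0.90 and 1.11 on the log2 scale in the other 3 lines. Elovl6 differed by −0.29, −0.88 and −1.03 (the first not called without replicate 2, at −0.24 and adjusted p = 0.0591), Scd2 by −0.43, −0.91 and −1.08 and Fasn by −0.41, −0.92 and −1.05. With scaling by library totals alone, 10, 6 and 9 members responded above MYAZ16.1e and 7, 11 and 11 below, against 11, 9 and 11 above and 7, 10 and 9 below with TMM. By branch it put 7, 5 and 8 sterol enzymes above and 1, 2 and 2 below, and 2, 0 and 0 fatty acid genes above and 4, 6 and 7 below. That scaling also moved the share of lower values among all genes called, from 50.8%, 48.5% and 48.3% to 62.1%, 66.3% and 65.9%, as it moved the median of all genes to −0.07, −0.13 and −0.15.

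Along the descent from Myc310 to LM1 and LM1-LM, the response changed at the first step and not measurably at the second. These 2 comparisons were chosen after the values were seen. LM1 differed from its parent Myc310 in 16 members (5 above and 11 below), against 24.5% of all genes (14.5% above and 9.96% below). With scaling by library totals it differed in 14 (3 above and 11 below), and the share of lower values among all genes called was 70.3%, against 40.7% with TMM. The response of Hsd17b7 was −0.86 from that of the parent, of Elovl6 −0.59, of Fasn −0.51 and of Scd2 −0.48, and Fdft1 and Msmo1 responded 0.54 and 0.42 higher. LM1-LM differed from LM1 in 0 members with edgeR (0.769% of all genes, 0.328% above and 0.44% below), with 7 members at an unadjusted p under 0.05 and log2 differences of at most 0.29. At that unadjusted threshold 11.3% of all genes passed. DESeq2 called 1 member, Scap, and edgeR without a filter 3, Fdps, Fasn and Scd2.

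In control medium the sterol enzymes were mostly lower in Myc310 and its descendants, and the fatty acid genes moved in both directions. Against the 3 MYAZ lines, 27 members differed in Myc310 (6 higher, 21 lower), 27 in LM (6 higher, 21 lower) and 27 in LM-LM (7 higher, 20 lower). Of all 13795 genes tested, 23.8%, 30.3% and 30.5% were higher and 27.1%, 30.5% and 32.3% lower. The sterol enzymes were lower with medians of −0.93, −0.71 and −0.70 on the log2 scale, 14, 14 and 13 of the 18 past the test. Of the fatty acid genes, Fasn, Acly and Acaca were higher and Acss2, Scd2, Fads1 and Fads2 lower in all 3 comparisons. The call of Fads2 was lost in 5 of 14 alternatives in Myc310 (−0.827, adjusted p = 0.0119) and in 2 of 18 in LM-LM. The comparisons share the MYAZ libraries, Myc310 is 1 line, and the part of medium handling was not tested.

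This model treats cultures of a line as independent. Summing counts per line lifts this, but the LM and LM-LM lines all descend from Myc310 and are not independent of each other. With counts summed per line, 3 lines against 3, the calls went from 27 to 17 in LM (5 higher, 12 lower) and from 27 to 14 in LM-LM (5 higher, 9 lower), where 11.3% and 12.8% of 16017 genes were higher and 12.4% and 13.6% lower. Called lower in both were 6 sterol enzymes (Acat2, Mvk, Mvd, Fdft1, Cyp51 and Msmo1), Stard4, Acss2 and Fads1, and called higher in both were Srebf1, Scap, Acly, Acaca and Fasn. The sterol enzymes among those not called with summed counts, such as Hmgcs1 (−0.79 ± 0.29 in LM, adjusted p = 0.0844) and Sqle (−0.71 ± 0.27, adjusted p = 0.0903), had values close to those of the culture model (−0.81 and −0.73). Without MYAZ6.6g, the Hmgcs1 value in LM by the culture model was −0.47.

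Acss2 was the member that differed most between lines. It measured 32.7, 30.7 and 13.6 CPM in MYAZ6.6g, MYAZ12.3i and MYAZ16.1e (means of 3 cultures), 8.35 CPM in Myc310, and 4.06 to 7.82 CPM over the 6 LM and LM-LM lines. No LM or LM-LM line overlapped a MYAZ line, and the log2 difference was −2.15 ± 0.39 in LM and −2.18 ± 0.39 in LM-LM with summed counts. Fasn differed the other way, with 463, 555 and 596 CPM in MYAZ12.3i, MYAZ6.6g and MYAZ16.1e, 1057.0 CPM in Myc310, and 856 to 1098.2 CPM in the LM and LM-LM lines. Srebf1, whose reads and those of Rai1 may not be parted, was 117 to 134 CPM in the MYAZ lines and 155 to 173 CPM in the LM and LM-LM lines, and Scap 71.2 to 82.5 CPM against 89.4 to 124 CPM. Thus 2 sensing genes were higher where Insig1 and Stard4 were lower. Srebf2 was also called lower by the culture model, at −0.685, −0.345 and −0.385 on the log2 scale in Myc310, LM and LM-LM. In LM and LM-LM this call was lost in some alternatives. Insig1 measured 41.5 to 61 CPM in the MYAZ lines and 28.8 to 39.7 CPM in the LM and LM-LM lines, and Stard4 72.6 to 89.1 and 38.5 to 58.4 CPM.

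Within a subtype the lines were not alike. MYAZ6.6g had the highest level of 13 of the 18 sterol enzymes, among them Hmgcs1 at 169 ± 3.63 CPM, against 97.4 ± 6.7 in MYAZ12.3i and 88.3 ± 2.41 in MYAZ16.1e. LM1-LM had the lowest level of 7 sterol enzymes and LM1 of 6. How often these lines were highest or lowest over all genes was not counted. Over the 18 enzymes, the median log2 level relative to the mean of the 10 lines was 0.75 in MYAZ6.6g, 0.40 in MYAZ12.3i and 0.15 in MYAZ16.1e, then 0.11, 0.04 and 0.00 in LM2, LM3-LM and LM2-LM, −0.15 in LM3, −0.36 in Myc310, and lowest in LM1-LM (−0.51) and LM1 (−0.49). By this measure LM1 and LM1-LM lay below Myc310, whereas the other 4 LM and LM-LM lines lay above it. MYAZ16.1e, LM1 and LM1-LM, whose medium was changed according to every source, were each the lowest line of their subtype by this median and by that of the fatty acid genes, and a medium change made in these lines alone cannot be told apart from a difference between lines. For the 9 fatty acid genes the median was 0.43 and 0.42 in MYAZ6.6g and MYAZ12.3i, −0.22 in MYAZ16.1e, and −0.18 to 0.14 in the other 7 lines. Hsd17b7 stood apart, being 18 CPM in Myc310 and 30.7 to 46.6 CPM in all other lines. Ebp was higher in Myc310, LM and LM-LM lines than in 2 of the MYAZ lines, but MYAZ16.1e at 38.8 CPM lay within their range of 33.4 to 44.4 CPM.

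Marker lists of other cells moved between these lines as well. The fibroblast list (10 of 10 in the table, 5 above 1 CPM in any group) summed to 1.73 to 2.16 CPM in Myc310, 7.46 to 98.4 CPM in the MYAZ lines and 15.1 to 217 CPM in the LM and LM-LM lines, Col3a1 alone reaching 199 CPM, while Fap was at 0 in every library and Dcn and Lum stayed at or under 0.143 CPM. The endothelial list (8 of 10 in the table, 1 above 1 CPM in any group, Erg at 0 in every library) summed to 3.76 to 7.24 CPM in the MYAZ lines and 0.375 to 1.37 CPM in Myc310 and the LM and LM-LM lines, without overlap. The mammary epithelium list ran from 339 CPM in MYAZ12.3i to 2464.1 CPM in LM3-LM. The leukocyte list summed to 17.7 to 39 CPM in the MYAZ lines, 41.2 to 43.2 CPM in Myc310 and 30.4 to 53.4 CPM in the LM and LM-LM lines, and the alveolar list did not exceed 2.97 CPM. The adipocyte list summed to 37.5 to 76 CPM in the MYAZ lines and 57.2 to 165 CPM in the LM and LM-LM lines. Their part in the differences between lines was not tested.

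**Figure D3:**
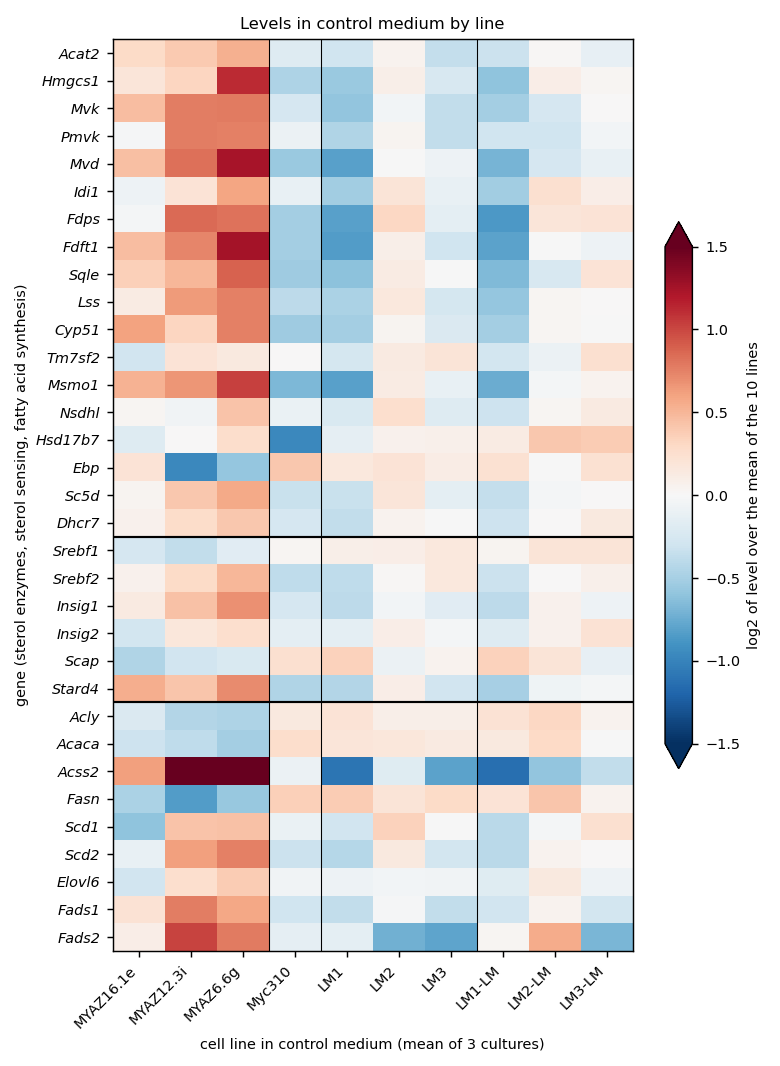
Level of each of the 33 genes in each of 10 lines in control medium, as log2 of the mean of 3 cultures over the mean of the 10 lines (colour, capped at 1.5 either way), with the branches parted by heavy lines and the subtypes by thin ones. Of the 18 sterol enzymes, 13 are highest in MYAZ6.6g and 13 lowest in LM1 or LM1-LM, and Fasn, Acly and Acaca are lowest in the 3 MYAZ lines.

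MYAZ12.3i NDI1 differed from MYAZ12.3i by small amounts that ran mostly one way. Of 33 members, 20 were higher and 2 lower, against 8.14% and 9.27% of the 12841 genes tested. The sterol enzymes had 12 of 18 higher and none lower, with a median of 0.21 on the log2 scale and 0.00 over all genes, the sensing genes 4 higher and 1 lower, and the fatty acid genes 4 higher and 1 lower. Leaving out replicate 1, 2 or 3 of both lines left 13, 15 and 12 members called, and leaving out MYAZ12.3i control replicate 2 alone, whose library name also lies outside its run, left 18. In every alternative run, 11 of the 22 were called, and the others (Acat2, Pmvk, Mvd, Idi1, Nsdhl, Srebf2, Insig2, Stard4, Scd1, Scd2 and Fads1) reached adjusted p values of 0.0532 to 0.231 in at least 1. Marker lists moved in this comparison too. From MYAZ12.3i to MYAZ12.3i NDI1 and without overlap, the fibroblast list went from 94.1 to 98.4 CPM up to 104 to 107 CPM, the mammary epithelium list from 339 to 352 up to 368 to 380.2, and the adipocyte list from 75 to 76 up to 77.8 to 80.5, while the endothelial list went from 6.93 to 7.24 down to 5.34 to 5.75. The leukocyte and alveolar lists overlapped. The part of these markers in the differences was not tested.

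Cyp51 showed the largest of these differences. It measured 69.8, 75 and 73.8 CPM in MYAZ12.3i and 102, 102 and 97.8 CPM in MYAZ12.3i NDI1, a log2 difference of 0.46 ± 0.04 (adjusted p = 3.98e-06). Hmgcs1 measured 90.3, 104 and 98.2 CPM against 124, 127 and 126 CPM, a difference of 0.37 ± 0.04, and neither gene overlapped between the lines. Fdps, Msmo1, Mvd, Sqle, Acat2 and Nsdhl were higher by 0.23 to 0.26. Hsd17b7 did not differ measurably (0.00 ± 0.05). Among the sensing genes, Srebf1, Insig1, Stard4 and Srebf2 were higher by 0.11 to 0.20, and Insig2 was lower by −0.19 ± 0.06, with an adjusted p of 0.0439 that 9 alternatives brought above the threshold. Acly and Fasn were higher by 0.19 and 0.16, and Scd1 was lower, at 225, 232 and 236 CPM against 222, 206 and 216 CPM.

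**Figure D4:**
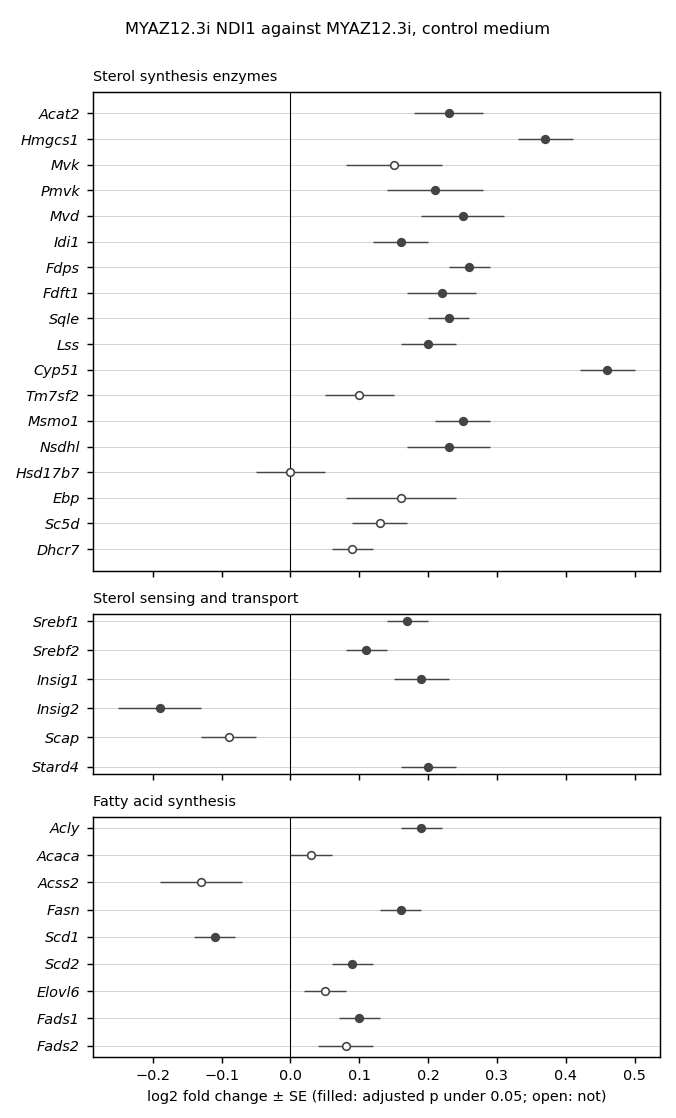
Log2 fold change of each of the 33 genes in MYAZ12.3i NDI1 against MYAZ12.3i in control medium (x axis, points with SE, 3 cultures each), by branch, filled where the adjusted p was under 0.05. The sterol enzymes lie at or right of 0, up to 0.46 for Cyp51, and Insig2 and Scd1 are the filled points left of 0.

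Genes that act on either side of these routes were followed in the deprived cultures from 5 further lists. Of all genes tested, in the order MYAZ16.1e, Myc310, LM1 and LM1-LM, 27.1%, 33.9%, 35.3% and 35.9% fell and 26.6%, 32.8%, 35.8% and 36.5% rose, and the counts of each list are to be read against these shares. In the same order, 10, 9, 9 and 10 of 19 tested genes of other fatty acid synthesis and elongation fell and 2, 4, 5 and 5 rose. Hacd1 and Hacd3, dehydratases of fatty acid elongation, fell by 0.69 to 1.74 and by 0.35 to 0.99, and the mitochondrial citrate carrier Slc25a1 fell by 0.52 to 0.71. Mid1ip1, whose product promotes acetyl-CoA carboxylase polymerisation, rose by 0.85 to 1.07.

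Of 7 triglyceride and droplet genes, 2, 5, 4 and 4 fell and 2 rose in each line, where 27.1% to 35.9% of all genes fell and 26.6% to 36.5% rose. Plin2, the coat protein of lipid droplets, rose by 0.57, 1.61, 2.02 and 2.19 in the 4 lines. Gpam, which starts glycerolipid synthesis, measured 0.05 in MYAZ16.1e (adjusted p = 0.625) and fell by 0.89, 1.10 and 1.17 in the others. The phosphatidate phosphatases Lpin1 and Lpin2 fell in all 4, by 0.56 to 0.88 and by 0.33 to 0.44. Of 9 tested genes of fatty acid oxidation, 0, 2, 3 and 4 fell and 1, 3, 5 and 5 rose, to be read against the same shares of all genes. Acadm, a medium-chain acyl-CoA dehydrogenase, measured −0.07 in MYAZ16.1e (adjusted p = 0.34) and fell in the others, with log2 changes of −0.80, −1.26 and −1.34. Cpt1a and Cpt2, carnitine palmitoyltransferases, measured −0.02 and 0.07 in MYAZ16.1e and −0.37 and −0.65 in Myc310, where only Cpt2 passed the test, and fell by 0.85 and 0.79 in LM1 and by 1.06 and 0.80 in LM1-LM.

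Of 10 tested genes of sterol export, esterification and LXR signalling, 1, 1, 3 and 3 fell and 4, 3, 4 and 5 rose, where 27.1% to 35.9% of all genes fell and 26.6% to 36.5% rose. Npc1, which releases cholesterol from lysosomes, rose by 0.30, 0.63, 0.74 and 0.77, and Osbp, an oxysterol-binding lipid carrier, by 0.24, 0.32, 0.57 and 0.67. The LXR gene Nr1h3 rose by 0.77 in MYAZ16.1e and measured 0.22, 0.15 and −0.06 in the others, none past the test, and the LXR gene Nr1h2 measured −0.10 in MYAZ16.1e (adjusted p = 0.181) and fell by 0.26, 0.25 and 0.31 in the others. Of 9 genes of the isoprenoid branch, 5, 4, 2 and 2 fell and 1, 3, 3 and 3 rose. Rabggtb, a subunit of Rab geranylgeranyl transferase, fell by 0.24, 0.45, 0.48 and 0.57, and Fnta, a subunit shared by the farnesyl and geranylgeranyl transferases, by 0.20, 0.24, 0.42 and 0.42. Ggps1, the geranylgeranyl diphosphate synthase, measured 0.07 in MYAZ16.1e (adjusted p = 0.398) and rose by 0.32, 0.68 and 0.62 in the others, and Coq2, a prenyltransferase of ubiquinone synthesis, rose by 0.13 to 0.41.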

How the data were processed

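RNA-seq counts were analysed for 45 cultures of 11 lines. The authors deposited raw gene counts as whole numbers, made from paired-end reads of a strand-specific polyA library (NEBNext Ultra II Directional) with the nf-core RNAseq pipeline, STAR and RSEM on GRCm38. The submitters' processing notes name R 4.2.2 and DESeq2 1.38.3. The strand setting of the quantification is not given in the sources used here, so reads of genes that overlap on opposite strands may not be parted. Estimated counts appear to have been rounded before deposit.

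Groups were taken from the labels. Counts were tested with edgeR 4.0.16 (quasi-likelihood, TMM, filterByExpr, Benjamini-Hochberg over all genes tested, threshold 0.05). The 24 libraries of the 4 deprived lines were fitted together with 8 group means. The 30 control libraries of 10 lines were fitted by subtype, and MYAZ12.3i NDI1 was fitted against MYAZ12.3i with 6 libraries. SE is the log2 fold change over the root of the F statistic. Scripts were tested on simulated data. The alternatives were RLE, upper-quartile or no scaling, other filters, DESeq2 1.42.0, a replicate block, left-out replicates, lines or libraries, voom in limma with the line as a random block, and counts summed per line.

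All members are named, and from each further list up to 4 genes with the largest mean change among those of at least 8 CPM. One further list and a gene of another are not reported here. The members and lists were chosen with earlier results of these data known. Same-numbered replicates did not deviate together between groups. Gene positions came from GENCODE and promoters from RefSeq, GRCm38.p6.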

Additional observations from a re-analysis of the deposited data

Results flagged for a closer look

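The results listed here were those in which the response to deprivation differed between lines by a test of the difference itself (edgeR interaction term, adjusted p under 0.05 over all genes). They number 73 over 24 members, and each value is the response of the named line minus that of the other on the log2 scale. The 3 comparisons with MYAZ16.1e share its 6 libraries, and 40.3% to 54.8% of all genes passed the same test. Groups of 3 cultures were not tested for outlying samples.

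Sterol synthesis enzymes were compared with MYAZ16.1e first. Hmgcs1 differed by 0.37 in LM1-LM and 0.26 in LM1. Idi1 differed by 1.11 in LM1-LM, 0.90 in LM1 and 0.64 in Myc310. Fdps differed by 0.56 in LM1-LM and 0.29 in LM1. Fdft1 differed by 0.94 in LM1-LM, 0.88 in LM1 and 0.35 in Myc310. Sqle differed by 1.18 in LM1-LM, 1.09 in LM1 and 0.88 in Myc310. Lss differed by −0.25 in LM1. Cyp51 differed by 0.44 in LM1-LM, 0.47 in LM1 and 0.76 in Myc310. Msmo1 differed by 1.40 in LM1-LM, 1.38 in LM1 and 0.96 in Myc310. Hsd17b7 differed by 0.86 in Myc310. Sc5d differed by 0.40 in LM1-LM, 0.35 in LM1 and 0.38 in Myc310. Dhcr7 differed by −0.75 in LM1-LM, −0.58 in LM1 and −0.26 in Myc310.

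Genes of sterol sensing and transport were compared with MYAZ16.1e first. Srebf1 differed by 0.12 in LM1-LM. Srebf2 differed by 0.13 in LM1-LM and 0.13 in Myc310. Insig2 differed by 0.98 in LM1-LM, 0.90 in LM1 and 0.58 in Myc310. Scap differed by −0.55 in LM1-LM, −0.40 in LM1 and −0.19 in Myc310. Stard4 differed by −0.42 in LM1-LM, −0.59 in LM1 and −0.67 in Myc310.

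Fatty acid genes were compared with MYAZ16.1e first. Acly differed by −0.16 in LM1-LM, −0.19 in LM1 and −0.29 in Myc310. Acaca differed by −0.22 in LM1-LM and −0.12 in LM1. Fasn differed by −1.05 in LM1-LM, −0.92 in LM1 and −0.41 in Myc310. Scd1 differed by −0.20 in LM1-LM and −0.21 in LM1. Scd2 differed by −1.08 in LM1-LM, −0.91 in LM1 and −0.43 in Myc310. Elovl6 differed by −1.03 in LM1-LM, −0.88 in LM1 and −0.29 in Myc310. Fads1 differed by 0.23 in Myc310. Fads2 differed by 0.38 in Myc310.

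In LM1 against its parent Myc310, a comparison chosen after the values were seen, the differences were 0.54 for Fdft1, 0.22 for Sqle, 0.42 for Msmo1, 0.32 for Insig2 and 0.10 for Acly, with LM1 higher, and −0.29 for Cyp51, −0.86 for Hsd17b7, −0.32 for Dhcr7, −0.21 for Scap, −0.13 for Acaca, −0.51 for Fasn, −0.33 for Scd1, −0.48 for Scd2, −0.59 for Elovl6, −0.19 for Fads1 and −0.30 for Fads2, with LM1 lower. For Acly the adjusted p was 0.0459, and all 11 alternatives gave one between 0.0553 and 0.906.

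Some of these calls were not stable. Lss in LM1 against MYAZ16.1e had an adjusted p of 0.0499 and was lost in 4 of 11 alternatives (0.00291 to 0.383 over all 11), among them that without MYAZ16.1e control replicate 3 (adjusted p = 0.0882). Both Srebf2 calls were lost without that library (adjusted p = 0.0576 in LM1-LM and 0.0598 in Myc310). Over all 11 alternatives their adjusted p ran from 0.0196 to 0.668 in LM1-LM, where the sign changed under library totals, and from 0.009 to 0.352 in Myc310. Also lost in at least 1 alternative were Hmgcs1, Fdps, Sc5d and Acaca in LM1, Srebf1 in LM1-LM, and Fdft1 and Elovl6 in Myc310, all against MYAZ16.1e, and Sqle, Cyp51, Acaca, Fads1 and Fads2 in LM1 against Myc310.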

How the results depend on the processing

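Counts of members called stayed between 25 and 31 for deprivation in each of the 4 lines over all alternatives, and between 16 and 20 for the responses against MYAZ16.1e. With a replicate left out they were 25 to 29 in MYAZ16.1e, 29 to 30 in Myc310, 28 to 30 in LM1 and in LM1-LM, 16 to 19, 17 to 18 and 18 to 19 for these responses, 11 to 15 for LM1 against Myc310 and 0 for LM1-LM against LM1. With a replicate or line left out they were 25 to 31 in Myc310, 25 to 30 in LM and 26 to 30 in LM-LM against MYAZ. Summing counts per line left 17 members called in LM and 14 in LM-LM against MYAZ. For MYAZ12.3i NDI1, 12 to 18 members were called with a replicate or library left out (13 without replicate 1, 12 without replicate 3, 18 without MYAZ12.3i control replicate 2). For LM1-LM against LM1, no filter gave 3 calls, DESeq2 gave 1 and library totals gave 1.

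Among results called either as reported or in the alternative, a direction turned in 5, all with library totals in place of TMM, which shifts all genes. These were −0.104 for Srebf1 and −0.002 for Fads1 under deprivation in LM1-LM, −0.118 for Srebf1 in the response of LM1 against MYAZ16.1e, and −0.035 for Srebf1 and −0.029 for Srebf2 in that of LM1-LM. Differences near 0 that passed the test in neither also changed sign in some alternatives. Library totals moved the median of all genes under deprivation to −0.121 in LM1 and −0.126 in LM1-LM.

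Same-numbered cultures deviated together with correlations between −0.05 and 0.05, so the numbers do not pair them. With the replicate block, 29, 30, 29 and 29 members were called for deprivation, 18, 18 and 20 for the responses against MYAZ16.1e, 16 and 0 for the neighbouring lines, 27 in each comparison with MYAZ and 20 for MYAZ12.3i NDI1. Library totals and the test without MYAZ12.3i control replicate 2 were chosen after the data were seen. Every member had at least 44 counts in every library, and the comparisons of LM and LM-LM with MYAZ rest on 3 lines a side. On the LM and LM-LM side these lines all descend from Myc310.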
